A study of Bos taurus with 6 samples.

Results

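The glutathione system, catalase and the superoxide dismutases were followed here in single bovine oocytes as 10 gene symbols: GSTM3, GPX1, GPX4, GCLC, GCLM, GSR, GSS, CAT, SOD1 and SOD2. Members were taken by symbol, with every row that carried one, which gave 11 rows for 9 symbols among 20707 rows, and GPX1 was not analysed here. MII oocytes, arrested at metaphase of the second meiotic division, had been matured in vitro for 24 hours (libraries MII14c, MII15 and MII15c). GV oocytes, arrested in prophase with an intact germinal vesicle, were collected when follicles were aspirated (libraries GV14, GV14c and GV15). Both stages were *Bos taurus* oocytes from cumulus-oocyte complexes of abattoir ovaries, with no genetic change or drug named in the labels. Values are RPKM, reads divided by the length of the gene model and by the library's mapped reads. Levels of different genes are set side by side here with a limit. Division by length does not correct for the extent of a model, the length of poly(A) tails or amplification. Levels were relative to the reads of each library. The study's title concerns cytoplasmic polyadenylation, and the cDNA kit primes on poly(A) tails, so fewer transcripts and shorter tails cannot be told apart. The labels do not say whether the oocytes came from separate animals or whether a letter c marks a repeat, so p-values measure only the spread between these libraries.

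Glutathione is a tripeptide thiol and the main small antioxidant of the oocyte, where it builds up during maturation and later helps to reduce the sperm nucleus. Glutamate-cysteine ligase, made of the catalytic subunit GCLC and the modifier GCLM, joins glutamate to cysteine, and glutathione synthetase (GSS) adds glycine. Glutathione peroxidases and transferases spend the thiol on peroxides and electrophiles, and glutathione reductase (GSR) restores it with NADPH. Superoxide dismutases convert superoxide to hydrogen peroxide, SOD1 mainly in the cytosol and SOD2 in the mitochondrial matrix, and catalase (CAT) breaks hydrogen peroxide down.

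The mapped reads recovered from the low RPKM values were 21.345 to 32.625 M in MII libraries and 20.275 to 30.005 M in GV libraries. Genes at 1 RPKM or more numbered 7170 to 8087 in MII libraries and 8401 to 9304 in GV libraries (two-sided exact permutation test, p = 0.1, the smallest that 3 against 3 libraries allow). All 14 oocyte markers had a row that reached a mean of 1 RPKM, and they summed to 3333 to 4232 RPKM in MII libraries and 7534 to 10624 RPKM in GV libraries, with 8 called lower and none called higher in MII. Over all tested genes, 26.9% were called lower and 13.4% higher in MII. Of 18 cumulus and granulosa cell markers, 16 had a row, 12 of them had a mean under 1 RPKM, and PTX3, LHCGR and NR5A1 were listed at 0 in all 6 libraries. Their sum was 104 to 109 RPKM in MII libraries and 94.0 to 163 RPKM in GV libraries, and of the 4 tested HAS2 was called higher and STAR lower in MII. The part of these cells in the results below was not tested. The 4 blood markers with a row summed to at most 0.259 RPKM in MII libraries and 1.38 RPKM in GV libraries. Library adapters were diluted 1 in 50 for MII14c and MII15, and 1 in 30 and 1 in 10 for GV14 and GV15, per the labels, and in these libraries the effect of dilution cannot be told apart from that of stage.

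Of the 7 member rows that reached a mean of 1 RPKM and so were tested, 2 were higher in MII (CAT and GSR), 2 were lower in MII (GSTM3 and SOD1) and 3 were not called (GCLC, GCLM and GSS), at an adjusted p under 0.05 in limma. GSTM3 dropped to 371.6 RPKM in MII oocytes, against 4371 RPKM in GV oocytes, while CAT and GSR were 1.87 and 2.13 times as high in MII as in GV. Over all 8671 tested genes, 40.3% were called, with 13.4% higher and 26.9% lower in MII, and 51.9% had stages that did not overlap. The median log2 change was -0.35 for the 7 member rows and -0.16 for all tested genes. Quantile normalization moved the median of all tested genes to 0.19, and median-ratio scaling to 0.05. The 4 called members kept their direction and their call under these scalings.

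**Figure D1:**
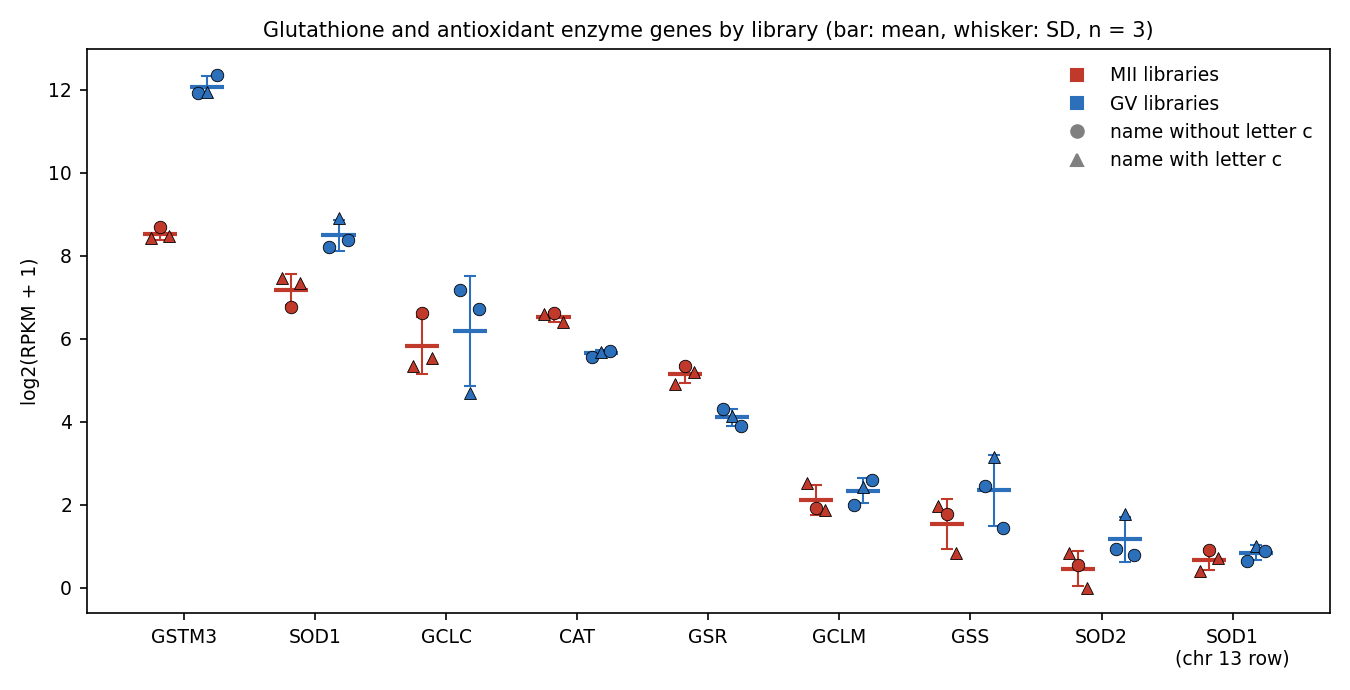
Level of the 9 member rows with any reads, as log2(RPKM + 1), in each library, with MII left of GV and the mean and SD of 3 libraries per stage; triangles are libraries with a letter c in their name. The stages are apart for GSTM3, SOD1, CAT and GSR, and they overlap for GCLC, GCLM and GSS.

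The glutathione-consuming member GSTM3, a mu-class glutathione transferase, was the most abundant member at both stages and had the largest change of the 7 tested. GSTM3 (ENSBTAG00000001842) measured 343, 416 and 356 RPKM in MII14c, MII15 and MII15c, against 3895, 3954 and 5264 RPKM in GV14, GV14c and GV15. All MII libraries lay far below all GV libraries. The log2 change was -3.54 ± 0.21 (SE; adjusted p = 1.54e-05 in limma), and only 1.14% of tested genes had a lower value. By level, GSTM3 ranked 6 or 7 among all rows in every GV library and 124 to 145 in the MII libraries. It held 0.0968% to 0.111% of all RPKM in MII libraries and 0.941% to 1.30% in GV libraries. Per the deposited annotation, the gene runs on the plus strand of chromosome 3 from 33768050 to 33771443, with 7 coding exons of 630 nt together and 718 nt of model beyond the stop codon.

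GSTM3 has close relatives beside it, listed on the minus strand of the same chromosome, and reads from near-identical stretches may have been split between them by the authors' counting. The level of the relatives was low next to that of GSTM3. The most abundant of 3 GSTM1 rows (ENSBTAG00000012692) held 7.33 to 19.5 RPKM in MII libraries and 23.9 to 41.1 RPKM in GV libraries. GSTM5 held 2.49 to 2.68 RPKM in MII libraries and 3.56 to 10.1 RPKM in GV libraries, and GSTM4 was listed at 0 in all 6 libraries.

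The tested genes whose log2(RPKM + 1) most closely followed GSTM3 over the 6 libraries were KPNA2, an importin that carries proteins into the nucleus, ATP5G1, a subunit of the mitochondrial ATP synthase, and POLR2G, a subunit of RNA polymerase II. KPNA2 measured 201, 221 and 196 RPKM in MII14c, MII15 and MII15c, against 819, 828 and 1031 RPKM in GV14, GV14c and GV15 (Pearson r with GSTM3 0.9995). Pearson r was 0.9988 for ATP5G1 and 0.9987 for POLR2G. Such closeness was common, since 801 of 8670 other tested genes had r over 0.95, and with 3 libraries per stage r mainly tracks the difference between stages.

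The selenium-dependent peroxidase GPX4, which reduces lipid hydroperoxides, was listed at 0 RPKM in all 6 libraries. Its row (ENSBTAG00000046926) stands for a model of 522 nt in 4 coding pieces with gaps of 1 to 43 nt between them, on the plus strand of chromosome 7 from 51944664 to 51945231. That position lies inside SIL1 on the opposite strand, outside its coding exons. In RefSeq (assembly ARS-UCD2.0), GPX4 stands between POLR2E and SBNO2, and SIL1 between other genes, so this row stands at another place than the gene RefSeq names GPX4. A count of 0 on this model allows up to 3 reads, or 0.176 to 0.283 RPKM by library (counting error only). However, the annotation file records 144 supporting reads for the model, 0 of them spliced. That limit does not cover reads left out of the count, and why the row is listed at 0 was not tested.

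Among the other glutathione peroxidases, 5 of 6 symbols had a row and 2 were tested. None was called by limma, where 40.3% of all tested genes were, and 1, GPX7, had an unadjusted p under 0.05. GPX8, an enzyme of the endoplasmic reticulum, held 9.11 to 12.4 RPKM in MII libraries and 9.30 to 15.99 RPKM in GV libraries. GPX7 held 0.382 to 2.48 RPKM in MII libraries and 2.63 to 3.55 RPKM in GV libraries (log2 change -1.07 ± 0.40 SE, adjusted p = 0.0607 in limma). GPX7 was called lower without MII15 (adjusted p = 0.0069 in limma).

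Catalase, the peroxisomal enzyme that splits hydrogen peroxide without glutathione, was higher in MII. CAT (ENSBTAG00000020980) measured 95.2, 97.1 and 83.2 RPKM in MII14c, MII15 and MII15c, against 45.8, 50.1 and 51.4 RPKM in GV14, GV14c and GV15. Both stages were tight, at 91.8 ± 7.56 RPKM in MII and 49.1 ± 2.93 RPKM in GV (SD, n = 3 each), and did not overlap. The log2 change was 0.89 ± 0.20 (SE; adjusted p = 0.00673 in limma). CAT ranked 636 to 765 by level in MII libraries and 1307 to 1498 in GV libraries. Its model covers chromosome 15 from 65779274 to 65815277 on the plus strand, with 13 coding exons of 1584 nt together.

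Glutathione reductase, which returns oxidised glutathione to the thiol form, was likewise higher in MII. GSR (ENSBTAG00000007115) measured 29.2, 39.4 and 35.5 RPKM in MII14c, MII15 and MII15c, against 18.6, 16.5 and 13.8 RPKM in GV14, GV14c and GV15. The lowest MII library stood above the highest GV library. The log2 change was 1.05 ± 0.24 (SE; adjusted p = 0.00818 in limma), and the call was lost when the 2 columns that match no sample title were left out (adjusted p = 0.0753). This row lies on the minus strand of chromosome 27 from 25943820 to 25987788. A second GSR row (ENSBTAG00000046570), on chromosome 3 from 99695133 to 99696623, has no coding model and was listed at 0 in every library, although the annotation file records 666 supporting reads for it.

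**Figure D2:**
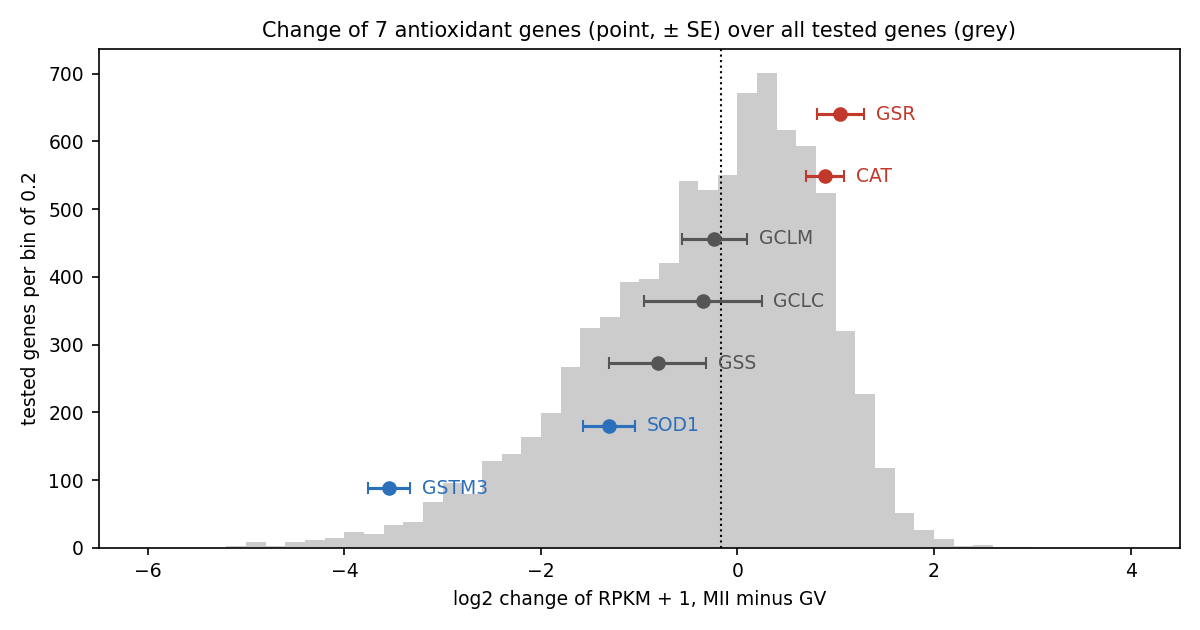
Log2 change of RPKM + 1 (MII minus GV) of the 7 tested members, as points with SE, over a histogram of the changes of all 8671 tested genes, whose median of -0.16 is the dotted line; heights of the points carry no value. GSR and CAT lie at 1.05 and 0.89, SOD1 at -1.31, and GSTM3 at -3.54 in the lower tail of the histogram.

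The copper-zinc superoxide dismutase SOD1 was lower in MII. SOD1 (ENSBTAG00000018854) measured 175, 107 and 161 RPKM in MII14c, MII15 and MII15c, against 294, 478 and 330 RPKM in GV14, GV14c and GV15. Every MII library lay below every GV library, and GV14c was the highest of all. The means were 147.7 ± 35.5 RPKM in MII and 367.1 ± 97.7 RPKM in GV (SD, n = 3 each), with a log2 change of -1.31 ± 0.27 (SE; adjusted p = 0.00463 in limma). The call was lost when all 20707 rows were tested with no filter on low values (adjusted p = 0.0515). Its model covers chromosome 1 from 3113467 to 3122627 on the minus strand, with 5 coding exons of 459 nt together and 800 nt beyond the stop codon.

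A second SOD1 row (ENSBTAG00000027412) on chromosome 13, from 51930067 to 51930888, has the same coding length of 459 nt in 1 exon. It held 0.313, 0.858 and 0.635 RPKM in MII14c, MII15 and MII15c, against 0.569, 0.995 and 0.842 RPKM in GV14, GV14c and GV15, which overlap. At the recovered depths this is 8, 15 and 17 reads in the MII libraries and 14, 22 and 14 reads in the GV libraries. The annotation records 1810 supporting reads for this row, 0 of them spliced. Reads shared with the 5-exon gene could have been assigned to either row, so both levels are uncertain to that extent.

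The row of the mitochondrial enzyme SOD2 was near the detection limit. SOD2 (ENSBTAG00000006523) held 0.778, 0.455 and 0 RPKM in MII14c, MII15 and MII15c, against 0.890, 2.43 and 0.719 RPKM in GV14, GV14c and GV15. These values are 10, 4 and 0 reads in the MII libraries and 11, 27 and 6 reads in the GV libraries, and the stages overlap. Its model on chromosome 9, from 97399159 to 97404522, has 3 coding exons of 345 nt together and 0 nt beyond the stop codon, unlike those of GSTM3 and SOD1. Reads past the end of this model would not count toward the row, which may therefore understate the level of the gene. The mean of the row was under 1 RPKM, so it was not tested. With no filter its adjusted p was 0.371 in limma, with a wide spread between libraries of 1 stage.

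The enzymes that make glutathione were not called. GCLC (ENSBTAG00000015571), the catalytic subunit of the rate-limiting ligase, measured 39.3, 97.6 and 45.5 RPKM in MII14c, MII15 and MII15c, against 142, 24.6 and 104 RPKM in GV14, GV14c and GV15. The stages overlap, and the lowest value of all 6 is a GV library. The log2 change was -0.35 ± 0.60 (SE; adjusted p = 0.668 in limma), an SE larger than that of any other tested member. Without GV14 the log2 change was 0.14, and a fit that weighted the libraries by their scatter called GCLC lower (adjusted p = 0.0111). That fit leaned on few libraries. The weights were 6.59 for MII15c and 2.23 for GV14, but 0.279 for MII15 and 0.434 for GV14c. The GCLC model covers chromosome 23 from 6922380 to 6965941 on the plus strand, with 16 coding exons of 1818 nt together.

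GCLM (ENSBTAG00000007842), which raises the activity of GCLC, was far less abundant than it. GCLM measured 4.73, 2.79 and 2.65 RPKM in MII14c, MII15 and MII15c, against 3.01, 4.34 and 5.01 RPKM in GV14, GV14c and GV15. The stages overlap (log2 change -0.23 ± 0.33 SE, adjusted p = 0.608 in limma), and quantile normalization turned the change to 0.21. GSS (ENSBTAG00000003504) measured 2.92, 2.43 and 0.785 RPKM in MII14c, MII15 and MII15c, against 4.49, 7.81 and 1.69 RPKM in GV14, GV14c and GV15. MII15c and GV15 were the low libraries of their stages, and the stages overlap (log2 change -0.81 ± 0.49 SE, adjusted p = 0.217 in limma). Weighted libraries called GSS lower (adjusted p = 0.00577), in a fit that gave the largest weight, 6.59, to MII15c, the lowest library for GSS.

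GCLC differed between libraries with and without a letter c in their name, a pattern looked at after its values were seen. The 3 libraries with the letter (MII14c, MII15c and GV14c) averaged 36.5 ± 10.7 RPKM, and the 3 without it (MII15, GV14 and GV15) averaged 115 ± 24.3 RPKM (SD, n = 3 each). The sets do not overlap, and the difference beside stage was -1.72 ± 0.26 on the log2 scale (SE; adjusted p = 0.00459 in limma), where 7.29% of all tested genes were called. With the letter as a term, the log2 change of GCLC between stages was 0.22. None of the other 6 tested members was called for the letter by limma, and SOD1 alone had an unadjusted p under 0.05, at 0.63 ± 0.18 (SE; adjusted p = 0.0595 in limma). What the letter stands for is not given in the sources used here, and its part in the spread of GCLC within stages was not tested.

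**Figure D3:**
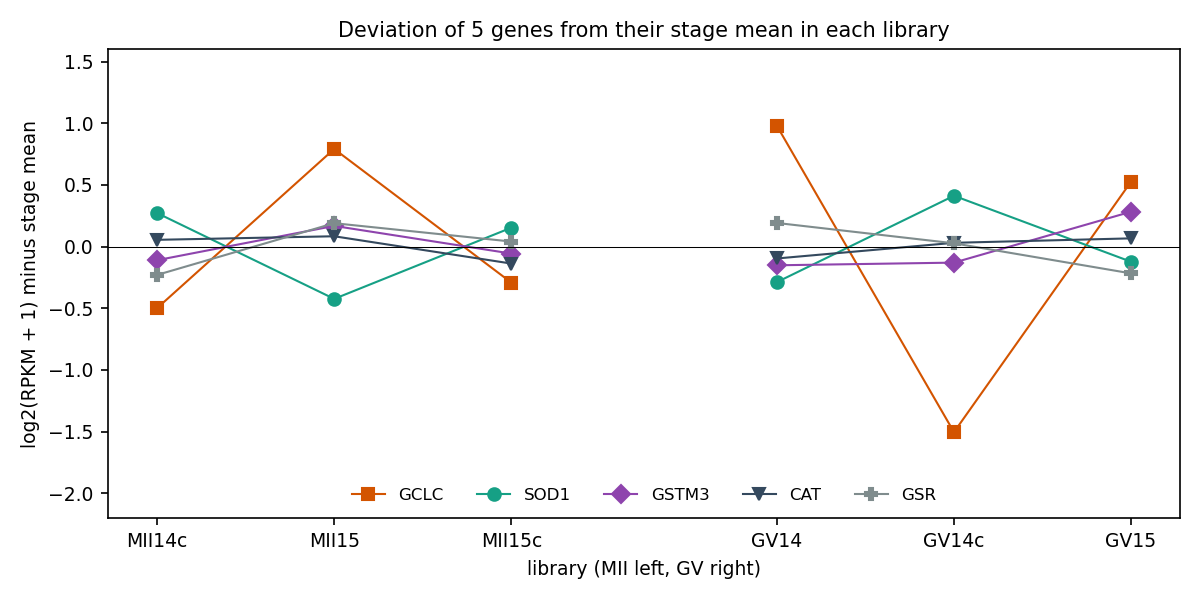
Deviation of log2(RPKM + 1) from the mean of its stage for GCLC, SOD1, GSTM3, CAT and GSR in each library, with MII left and GV right. GCLC ranges from -1.51 in GV14c to 0.98 in GV14 and is below its stage mean in all 3 libraries with a letter c, where SOD1 is above its own.

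Within MII oocytes the order of mean levels was GSTM3, SOD1, CAT, GCLC, GSR, GCLM and GSS. The ranges of GSTM3 and SOD1 lay apart from each other and from those below, as did those of GSR and GCLM. The ranges of CAT and GCLC overlap, as do those of GCLC and GSR and those of GCLM and GSS, although GCLC exceeded GSR and GCLM exceeded GSS within each MII library. Within GV oocytes the order was GSTM3, SOD1, GCLC, CAT, GSR, GSS and GCLM. There the ranges of GCLC and CAT overlap, as do those of GSS and GCLM, and the other neighbours are apart. SOD2 and the second SOD1 row stood below these 7 in mean level at both stages.

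The balance between the members differed with stage. GSTM3 made up 49.7% to 54.4% of the summed member RPKM in MII libraries and 87.1% to 91.2% in GV libraries. CAT made up 12.1% to 13.8% in MII libraries and 0.890% to 1.10% in GV libraries, shares of a sum that GSTM3 dominates, while its own level was 1.87 times as high in MII. The level of GSTM3 was 3.60 to 4.28 times that of CAT in MII libraries and 79.0 to 102 times in GV libraries. The level of SOD1, whose product feeds catalase, was 1.11 to 1.93 times that of CAT in MII libraries and 6.42 to 9.55 times in GV libraries. CAT and GSR, the 2 members higher in MII, kept ratios that overlap, at 2.35 to 3.26 in MII libraries and 2.46 to 3.73 in GV libraries. These ratios need no scaling between libraries, but they set different genes side by side, with the limit given at the start. They come from the same values as the changes above.

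The wider pathway was read from 12 lists of 118 symbols, of which 108 had a row and 61 were tested. Of these, 6 were higher in MII, 23 were lower and 32 were not called, with a median log2 change of -0.43. Over all tested genes, 40.3% were called, 13.4% higher and 26.9% lower. Scaling changed this split to 12 higher and 20 lower with median-ratio scaling, 13 and 19 with quantile normalization, and 11 and 20 with TPM. Weighting the libraries gave 17 higher and 28 lower, and testing all 108 with no filter on low values gave 3 and 13. Leaving out a library gave 2 to 10 higher and 17 to 23 lower, with 3 higher without GV14, 10 without GV14c, 2 without GV15 and 2 without MII15c. Without the 2 columns that match no title, 2 were higher and 9 were lower. The filter took the mean over both stages, so a gene low in MII could be tested through its GV values alone. Among the 23 lower genes this held for GSTA3, CBS, HAGH, PGLS, ALDH1L2, TKT and KEAP1, each with an MII mean under 1 RPKM. None of the 6 higher genes had a GV mean under 1 RPKM. All tested genes passed the same filter.

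**Figure D4:**
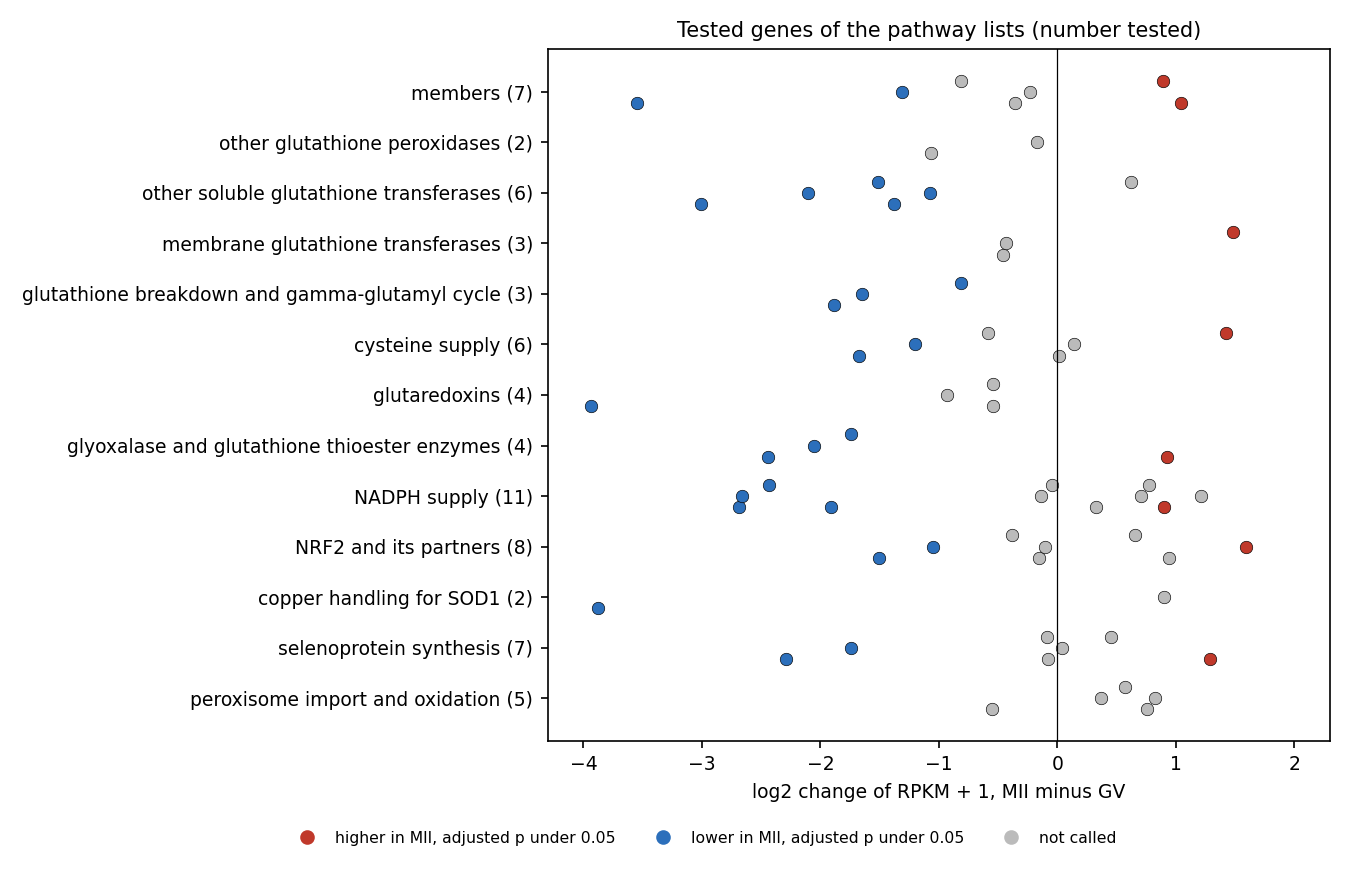
Log2 change of RPKM + 1 (MII minus GV) of each tested gene, one point a gene, by list, with the number tested in parentheses and the members on top; red is higher and blue lower in MII at an adjusted p under 0.05. Called genes reach -3.93 (GLRX3) on the lower side and 1.59 (SQSTM1) on the higher side.

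Soluble glutathione transferases other than GSTM3 were called lower in 5 of 6 tested genes, with none higher. Over all tested genes, the share called lower was 26.9%. GSTA4 was the gene not called, at a log2 change of 0.63 ± 0.35 (SE; adjusted p = 0.179 in limma). It held 29.8 to 65.1 RPKM in MII libraries and 25.8 to 44.4 RPKM in GV libraries. With no filter on low values 1 gene of the list was lower, as was 1 without the 2 columns that match no title. With library weights, or without MII14c, 1 was higher. GSTA3, an alpha-class enzyme, was listed at 0 in MII14c and MII15 and held 0.036 RPKM in MII15c, against 1.51 to 4.84 RPKM in GV libraries (adjusted p = 0.00269 in limma). GSTP1, the pi-class enzyme, held 0.896 to 8.82 RPKM in MII libraries and 13.5 to 88.4 RPKM in GV libraries, a log2 change of -3.01 ± 0.72 (SE; adjusted p = 0.00992 in limma). GSTM1, GSTM5 and GSTK1, the last a mitochondrial and peroxisomal enzyme, had log2 changes of -1.38, -1.07 and -1.51. GSTM1 was not called without MII15c (adjusted p = 0.0637 in limma), nor with median-ratio scaling. GSTK1 was not called without GV14, GV14c, MII15 or MII15c (adjusted p = 0.0522 to 0.0813), nor with quantile normalization. GSTM5 was not called without GV14c, GV15, MII14c, MII15 or MII15c (0.0746 to 0.159), nor with any of the 3 scalings.

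Membrane-bound transferases gave 1 call in 3 tested, where 40.3% of all tested genes were called. MGST1 held 5.66 to 21.0 RPKM in MII libraries and 1.49 to 5.21 RPKM in GV libraries, a log2 change of 1.48 ± 0.51 (SE; adjusted p = 0.0435 in limma). It was not called without GV14, GV15, MII14c or MII15c (adjusted p = 0.0536 to 0.168).

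On the list of glutathione breakdown and the gamma-glutamyl cycle, all 3 tested genes were called lower, where 26.9% of all tested genes were. CHAC1, which cleaves glutathione in the cytosol, held 0.199 to 1.98 RPKM in MII libraries and 4.67 to 10.4 RPKM in GV libraries (log2 change -1.88 ± 0.43 SE, adjusted p = 0.0083 in limma). GGCT, which acts on gamma-glutamyl amino acids, held 67.9 to 76.6 RPKM in MII libraries and 100.2 to 182 RPKM in GV libraries. GGCT was not called without GV14c, GV15, MII14c, MII15 or MII15c (adjusted p = 0.053 to 0.0767), nor with median-ratio scaling or quantile normalization. The peptidase LAP3 had a log2 change of -1.65 and was not called without GV14, GV14c or MII15c (0.053 to 0.095), nor with TPM scaling. The remaining 11 genes of the list had means under 1 RPKM, including the gamma-glutamyl transferase GGT1, listed at 0 in all 6 libraries.

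Cysteine supply split. CTH, which releases cysteine from cystathionine, was higher in MII at 43.9 to 71.3 RPKM, against 18.6 to 21.8 RPKM in GV libraries (log2 change 1.42 ± 0.25 SE, adjusted p = 0.00214 in limma). CBS, the enzyme one step earlier, was lower in MII at 0 to 0.436 RPKM, against 1.92 to 4.35 RPKM in GV libraries (adjusted p = 0.00452 in limma). The amino acid carrier SLC1A5 was lower as well, at 7.65 to 10.9 RPKM in MII libraries and 20.6 to 25.5 RPKM in GV libraries. SLC7A11, which imports cystine, held 0.715 to 1.21 RPKM in MII libraries and 0.633 to 1.32 RPKM in GV libraries and was not called.

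Among the glutaredoxins, which use glutathione to reduce disulfides or carry iron-sulfur clusters, 1 of 4 was called, where 40.3% of all tested genes were. GLRX3 measured 5.04, 0.258 and 5.01 RPKM in MII14c, MII15 and MII15c, against 53.9, 55.3 and 51.6 RPKM in GV14, GV14c and GV15. The stages are far apart, at a log2 change of -3.93 ± 0.55 (SE; adjusted p = 0.000751 in limma). GLRX, the most abundant, held 92.3 to 108 RPKM in MII libraries and 114 to 161 RPKM in GV libraries (adjusted p = 0.0722 in limma, not called, and 0.0476 without GV14).

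Of the enzymes that detoxify aldehydes through glutathione, GLO1 was higher and HAGH, ESD and ADH5 were lower in MII. GLO1, the first step of the glyoxalase pathway, held 564 to 674 RPKM in MII libraries and 234 to 410 RPKM in GV libraries (log2 change 0.93 ± 0.25 SE, adjusted p = 0.0161 in limma). GLO1 was not called without GV15 or MII15c (adjusted p = 0.0558 to 0.0678). HAGH, the second step, held 0 to 1.87 RPKM in MII libraries and 3.90 to 13.3 RPKM in GV libraries. ESD and ADH5, which act in the glutathione route of formaldehyde removal, had log2 changes of -1.74 and -2.05.

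NADPH, which GSR needs, is supplied by several routes, and 1 of 11 tested genes was higher and 4 were lower in MII. Over all tested genes, 13.4% were called higher and 26.9% lower. PGLS, TALDO1 and TKT of the pentose phosphate pathway had log2 changes of -2.69, -2.66 and -1.91, and ALDH1L2, a mitochondrial folate enzyme, of -2.43. PGD, which makes NADPH in the pentose phosphate pathway, held 31.0 to 47.1 RPKM in MII libraries and 28.2 to 67.1 RPKM in GV libraries and was not called. Nor were MTHFD1, MTHFD2, IDH1, ME2 and ME1, with log2 changes of 1.21, 0.78, 0.71, 0.33 and -0.04. MTHFD1 held 44.4 to 140 RPKM in MII libraries and 22.7 to 51.3 RPKM in GV libraries, next to the threshold (adjusted p = 0.0501 in limma). NNT, which makes NADPH in mitochondria, was higher in MII (log2 change 0.90 ± 0.32 SE, adjusted p = 0.0488 in limma), but not without GV14, GV15, MII14c or MII15c (0.122 to 0.161).

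The transcription factor NFE2L2 (NRF2), which drives many of these genes in somatic cells, held 2.39 to 6.32 RPKM in MII libraries and 3.74 to 7.998 RPKM in GV libraries and was not called. Its inhibitor KEAP1 and the ubiquitin ligase scaffold CUL3 were lower in MII, with log2 changes of -1.05 and -1.51, and the autophagy receptor SQSTM1, which binds KEAP1, was higher. SQSTM1 measured 48.9, 54.6 and 73.4 RPKM in MII14c, MII15 and MII15c, against 16.9, 21.6 and 17.5 RPKM in GV14, GV14c and GV15 (log2 change 1.59 ± 0.24 SE, adjusted p = 0.00114 in limma). KEAP1 was not called without GV14 or MII15c (adjusted p = 0.0589 to 0.0751), nor with quantile normalization. Of the 8 tested genes of this list, 1 was higher and 2 were lower, where 40.3% of all tested genes were called. MAFG, BACH1, NQO1 and TXNRD1 were not called, with log2 changes of 0.65, 0.95, -0.10 and -0.15.

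Copper reaches SOD1 through the chaperone CCS, and ATOX1 carries it to the secretory pathway. ATOX1 measured 7.46, 6.12 and 8.06 RPKM in MII14c, MII15 and MII15c, against 122, 110 and 126 RPKM in GV14, GV14c and GV15. The stages are far apart, at a log2 change of -3.88 ± 0.22 (SE; adjusted p = 1.5e-05 in limma). CCS held at most 0.759 RPKM in MII libraries and 1.04 RPKM in GV libraries and was not tested.

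Of 7 tested genes for building selenoproteins, the class to which GPX4 belongs, SEPSECS was higher and PSTK and SARS were lower in MII. Calls on this list were about as frequent as over all tested genes, of which 40.3% were called. SEPHS1, SEPHS2, TRNAU1AP and SECISBP2 were not called, with log2 changes of -0.07, 0.04, -0.09 and 0.46. SARS, which charges the serine tRNA, held 2.16 to 3.99 RPKM in MII libraries and 15.9 to 20.7 RPKM in GV libraries (log2 change -2.29 ± 0.30 SE, adjusted p = 0.000548 in limma). SEPSECS, the last step to selenocysteine, had a log2 change of 1.29 and PSTK, the step before it, of -1.74. SEPSECS was not called without GV14, GV15, MII14c or MII15c (adjusted p = 0.0527 to 0.0817), nor PSTK without GV14, GV14c or GV15 (0.0521 to 0.0942) or with TPM scaling. None of the 5 tested genes of the peroxisome list, the organelle where CAT resides, was called by limma, and 2 had an unadjusted p under 0.05. With each of the 3 scalings 2 were called higher, as with weighted libraries or the letter c as a term, while 1 was called higher without GV14c and 1 lower without MII15.

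Of the 29 pathway genes called, 10 kept call and direction under every alternative in which they were tested, namely GSTA3, CTH, GLRX3, ESD, ADH5, PGLS, ALDH1L2, SQSTM1, ATOX1 and SARS. Of these 10, GSTA3, PGLS and ALDH1L2 had MII means under 1 RPKM and passed the filter through their GV values. The other 19 called genes lost the call under at least 1 alternative. The letter c was called in 6 of the 61 tested pathway genes, among them GSTP1, TALDO1 and PSTK, where 7.29% of all tested genes were called.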

How the data were processed

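Single oocytes were profiled by poly(A)-primed cDNA amplification and 50 nt single reads, per the labels' protocols. The authors deposited RPKM per Ensembl gene with a symbol, per the file headers, and an annotation with coordinates extended by transcript discovery (other values: positions, counted from 1). The submitters' processing notes name DESeq, whose role, like the aligner, counter, strand setting and genome build, is not given in the sources used here. Columns GV14c and MII15c match none of the 6 sample titles and were used by stage alone, and another label calls all samples in vitro matured. The labels name no molecular identifiers, so reads of amplified cDNA can repeat 1 molecule and limits cover counting error only.

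Genes whose mean over the 6 libraries reached 1 RPKM were tested with limma 3.58.1 (R 4.3.3; eBayes with trend) on log2(RPKM + 1), MII minus GV, with Benjamini-Hochberg adjustment over all 8671 tested genes and a threshold of 0.05. Fold changes on this scale understate those of low genes. Depth was the value that made low RPKM of 3680 genes whole reads. At it, 89.6% to 95.3% of low values per library lay within 0.1 of a whole read. The 18 alternatives changed 1 choice at a time: pseudocount (0.1, 0.5), filter (none, mean of 5 RPKM), scaling (TPM, median-ratio, quantile), no trend, library weights, replicate block, letter c, each library left out, and the untitled columns left out.

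The members and lists were chosen with earlier results of these data known. Every member row is named, and from each list up to 4 called genes of smallest p and all genes of counts of 5 or fewer. For likeness, the 3 genes of highest Pearson r with the most abundant member and the member of smallest p are named. Other genes given as context were chosen after their values were seen. Where several rows share a symbol outside the members, the row of highest mean stands for it. Values of some genes of the lists are not reported here.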

Additional observations from a re-analysis of the deposited data

How the results depend on the processing

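Across all tested genes, 1162 were higher and 2329 lower in MII. The higher count was 741 with no filter on low values, 2055 with quantile normalization, 2262 with library weights and 352 without the 2 columns that match no title, where the lower count was 1280. Leaving out 1 library gave 585 (without MII15c) to 1338 (without MII15) higher genes, with 762 without GV14 and 761 without GV15. Quantile normalization gave 1828 lower genes and median-ratio scaling 1687 higher and 2059 lower. Of the members, 1 was higher without the columns that match no title, 1 was lower with no filter, and 4 were lower with library weights. The log2 change of GCLC ran from -1.11 to 0.14 over the libraries left out and was 0.22 with the letter c as a term, and that of GCLM was 0.21 with quantile normalization. The cause of these differences was not tested. GSTM3 and CAT were called in the same direction under all 18 alternatives (adjusted p = 4.22e-08 to 0.0045 and 0.000431 to 0.0472 in limma).

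With the number 14 or 15 as a replicate block, 1141 genes were higher and 2134 lower, and no member gained or lost a call. Of the pathway genes called, MGST1, GGCT and LAP3 were not called with the block. This left 1 of the 3 tested genes lower on the list of glutathione breakdown and the gamma-glutamyl cycle. The labels do not say that the numbers pair libraries, and deviations from the stage mean correlated at -0.23 to 0.43 between libraries of 1 number. Between MII and GV libraries alike in the letter c the correlation was 0.067 to 0.43. Between those unlike in it, the correlation was -0.41 to -0.0083, and the part of the letter was not tested. Deviations from a stage mean cancel within the stage, so positive correlations of some pairs force negative ones of others. These ranges are therefore not separate observations. Levels of SOD2 and of the second SOD1 row rest on at most 27 reads per library, so counting error adds to the spread between libraries.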
